A study of Mus musculus with 4 samples.

Results

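Aquaporins are membrane channels for water, and those called aquaglyceroporins also pass glycerol. Described here are 8 aquaporin genes, Aqp1, Aqp3, Aqp4, Aqp5, Aqp7, Aqp8, Aqp9 and Aqp11, of 19938 genes with a probe set of their own on the array. They were found by symbol, each with 1 probe set naming that gene alone, and all 8 passed the filter on dim genes that left 14953 genes for testing. The family was chosen by measured values: earlier results on the same 4 arrays had shown Aqp3 low and Aqp7 high in Ovol2 BT. Differences of the aquaporin genes between the groups are therefore given as descriptions, without a test.

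The study asked how epidermal differentiation changes when the zinc finger transcription factor Ovol2 is overexpressed in mouse skin. Total RNA of whole skin from female embryos at E17.5 (days of embryonic development) was hybridised on 4 Affymetrix arrays that cover whole transcripts, with RNA of 2 mice on each. Controls (2 arrays, strain given as CB6F1) carried TRE-Ovol2-Flag, a tetracycline-responsive transgene without its driver, or were wild type. The Ovol2 BT group (2 arrays, strain given as FVB/N) carried TRE-Ovol2-Flag together with K5-tTA, which makes the transactivator from a keratin 5 promoter, active in basal epidermis. The mice are described as littermates although the strain labels differ between the groups, so from the labels the strain and the genotype cannot be told apart. The arrays are called biological replicates, and with 2 per group the precision of every value is low.

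In the epidermis, Aqp3 sits in the plasma membrane of basal keratinocytes, where it carries water and glycerol and is known for its part in skin hydration. In fat cells, Aqp7 lets out the glycerol that lipolysis frees from stored triacylglycerol. Aqp9 is the glycerol channel of liver cells, and the other members mainly pass water in vessels, glands, muscle or inside cells.

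Aqp3 and Aqp7 are immediate neighbours on mouse chromosome 4 in the RefSeq gene order of GRCm38.p6, with 0 protein-coding genes between them, and both lie on the minus strand. Their upstream sequences are shown because these adjacent genes stood at opposite ends of the family. Each line gives the 250 bases before the transcription start, 5′ to 3′ on the gene's strand, from RefSeq. Capitals mark matches to 4 short motifs, which were searched on both strands. The TATA box was searched as TATAAA, and the GC box bound by Sp factors as GGGCGG. The element bound by many nuclear receptors was searched as AGGTCA, which reads TGACCT where it lies on the opposite strand. The core known for Ovo proteins was searched as CCGTTA. For Aqp7, which has 2 listed starts, the more upstream one is shown.
Aqp3, chr4:41098184-41098433, minus strand: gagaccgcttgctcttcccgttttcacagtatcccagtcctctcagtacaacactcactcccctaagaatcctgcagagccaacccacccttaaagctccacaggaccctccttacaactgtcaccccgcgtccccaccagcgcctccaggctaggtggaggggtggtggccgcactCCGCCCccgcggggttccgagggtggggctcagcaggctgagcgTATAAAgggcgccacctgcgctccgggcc
Aqp7, chr4:41048137-41048386, minus strand: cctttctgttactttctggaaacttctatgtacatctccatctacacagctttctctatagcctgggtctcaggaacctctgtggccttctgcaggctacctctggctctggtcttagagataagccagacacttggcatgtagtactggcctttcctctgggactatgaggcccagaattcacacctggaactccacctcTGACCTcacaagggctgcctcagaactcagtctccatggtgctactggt

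The Aqp3 window held a TATAAA match whose first letter lies 29 bases before the start and a GGGCGG match, on the opposite strand, at 73 bases. The Aqp7 window held neither, and had 1 AGGTCA match, on the opposite strand, at 49 bases before its start, and the overlapping window of its other start held that same site and 1 more. Of 32851 upstream windows of the same length in the table, 12.4% hold TATAAA, 32.7% hold GGGCGG, 14.0% hold AGGTCA and 2.18% hold CCGTTA. No CCGTTA match was present in the windows of the 7 members that had one, and the matches shown do not overlap each other. GC content was 64% in the Aqp3 window and 50.8% in that of Aqp7, against a median of 52.4% over all windows. These matches describe letters in the reference strain and show no binding.

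Median intensities of the 4 arrays lay between 123 and 132, so the arrays were on a similar scale. Ovol2 itself stood at 360 and 161 in control skin against 4367 and 3893 under overexpression, and rose by 4.0 on the log2(intensity + 16) scale used throughout (SE 0.33, limma adjusted p = 0.00311). Of 14953 genes tested, limma called 92 higher and 52 lower in Ovol2 BT, together 0.963% of them, and the median difference of all tested genes was -0.04. With each array centred on its median the split was 110 higher and 108 lower (50.5% of calls higher, against 63.9%). Markers of epidermis and of fat were both measured on every array. Intensities of the basal keratin gene Krt5 were 9485 and 8288 in the controls against 4478 and 3790 in Ovol2 BT, and those of the fat droplet gene Plin1 were 814 and 599 in the controls against 2840 and 2302 in Ovol2 BT. In whole skin, fewer cells of a type and less RNA per cell cannot be told apart.

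Within the family, Aqp3 was far lower and Aqp7 far higher in Ovol2 BT skin, and the other 6 members lay between -0.14 and 0.58 in log2 difference (Ovol2 BT minus control). Only Aqp3 and Aqp7 differed at least 2-fold. Calls of the members are not given as results, while over all tested genes limma called 0.348% lower and 0.615% higher. The arrays of both groups did not overlap for 5 members that were higher and 2 that were lower in Ovol2 BT, where 20.4% and 21.9% of all tested genes were separated in these directions and 42.3% in either. Since the family was chosen for this contrast, nothing is read from these counts.

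**Figure D1:**
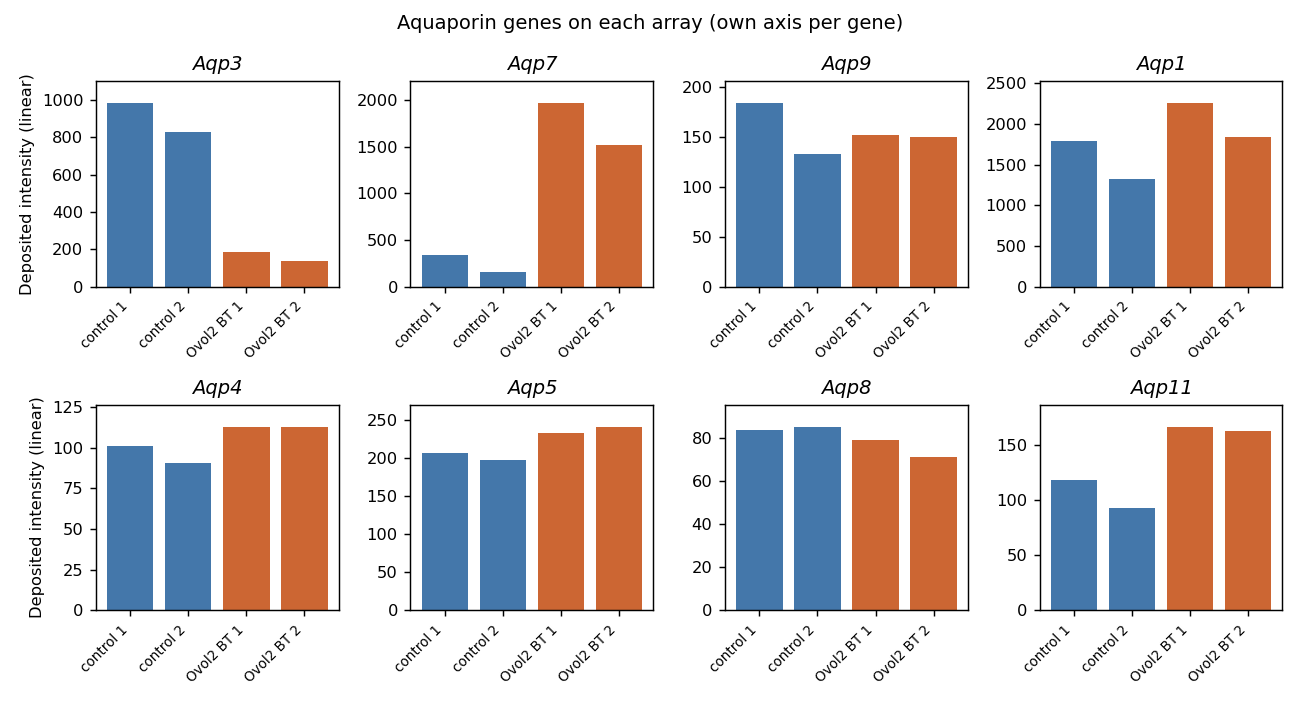
Deposited intensity (linear, from 0) of each of the 8 aquaporin genes on the 2 control arrays (blue) and the 2 Ovol2 BT arrays (orange), 1 bar per array and a separate axis for each gene, so that heights are not compared between genes. Aqp3 stood at 984 and 827 in the controls against 184 and 138 in Ovol2 BT, while Aqp7 stood at 336 and 159 against 1970 and 1517.

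Aqp3, through which basal keratinocytes take up water and glycerol, had intensities of 984 and 827 on the control arrays and 184 and 138 on the Ovol2 BT arrays. Both control arrays lay well above both Ovol2 BT arrays. The log2 difference was -2.39 (SE 0.23), which is 5.23-fold lower, and 6 of the 14953 tested genes had a lower difference. With 1 array left out it ranged from -2.58, without Ovol2 BT replicate 1, to -2.20, without Ovol2 BT replicate 2.

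Of 11 tested markers of basal keratinocytes, limma called 3 lower and 0 higher, where 0.348% of all tested genes were called lower. The other 8 did not pass the test, and 2 of the 11 had higher values in Ovol2 BT. The called genes were Krt15, which marks basal cells and follicle stem cells (-2.29, SE 0.20, adjusted p = 0.00311), Krt5 (-1.10, SE 0.16, adjusted p = 0.0148) and its partner keratin Krt14 (-1.24, adjusted p = 0.0226). Without a variance trend 1 of the 11 was called, and Krt5 was not (adjusted p = 0.0526). Their median difference was -0.26, where all tested genes had -0.04, and values reached from -2.29 for Krt15 to 0.24 for Itgb4, the integrin chain of hemidesmosomes, so the Aqp3 value lay below that of every tested marker of the list. The summed intensity of these markers was 25315 to 27256 in the controls and 13733 to 15183 in Ovol2 BT, with 0 markers at an intensity of 0. This sum mainly follows the called keratin genes and does not describe the other 8 markers. Krt5 alone had 9485 and 8288 in the controls against 4478 and 3790 in Ovol2 BT. Krt14 had 6529 and 5261 against 2832 and 2170. What part the basal markers have in the Aqp3 value was not tested.

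Suprabasal markers held no calls. All 8 tested genes had lower values in Ovol2 BT (median -0.24), but limma called 0 of them, and 1 was lower at an unadjusted p under 0.05. That gene was Ivl, the envelope precursor involucrin (-0.85, SE 0.25, adjusted p = 0.245). The next by p was Hrnr, a repeat protein of the cornified layer (-0.27, SE 0.15, adjusted p = 0.587). Ivl was called without Ovol2 BT replicate 2 (-1.18, adjusted p = 0.0272).

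The genes with values over the 4 arrays most like those of Aqp3 were sought among the tested genes. Predicted models and clones were left out, and likeness was the root mean square distance between log2 values after subtracting each gene's own mean. Krt15 was the closest, at a distance of 0.07, with intensities of 3697 and 3399 in the controls against 806 and 631 in Ovol2 BT. Next were the receptor tyrosine phosphatase gene Ptprz1 (distance 0.15), Gadl1, of a glutamate decarboxylase-like enzyme (0.19), Bnc1, the zinc finger protein basonuclin of basal keratinocytes (0.32), and Paqr3 (0.34). These 5 genes had log2 differences of -2.29, -2.45, -2.38, -2.07 and -1.81, respectively. Aqp3 and Krt15 were both a little higher in control replicate 1 than in control replicate 2 and lowest in Ovol2 BT replicate 2. Krt15 was picked for its likeness over these same 4 arrays, so the shared profile is a description and nothing is read from it.

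Aqp7, the glycerol channel of fat cells, had intensities of 336 and 159 on the control arrays and 1970 and 1517 on the Ovol2 BT arrays. The groups did not overlap, and on the log2 scale the controls themselves were further apart than the Ovol2 BT arrays. The log2 difference was 2.81 (SE 0.32), which is 7.03-fold higher, and 11 of the 14953 tested genes had a higher difference. It was 3.32 without control replicate 1 and 2.31 without control replicate 2, so its size depends on which control array is used.

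Of 11 tested adipocyte markers, limma called 7 higher and 0 lower in Ovol2 BT, where 0.615% of all tested genes were called higher. The groups were separated for all 11, where 20.4% of all tested genes were separated with Ovol2 BT higher. By smallest p these were led by Plin4, a lipid droplet coat gene (2.32, SE 0.26, adjusted p = 0.00516), and Thrsp, a regulator of lipid synthesis (3.46, SE 0.41, adjusted p = 0.00668). The median of the list was 1.85, and its members ran from 0.69 for the transcription factor gene Cebpa to 3.46 for Thrsp, a range that includes the Aqp7 value. The summed marker intensity was 5502 to 8101 in the controls and 23404 to 23954 in Ovol2 BT, with 0 markers at an intensity of 0.

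The values of Aqp7 and of the adipocyte markers on each array are given side by side as a description, since both were chosen with the contrast known. The log2 deviations of Aqp7 from its mean were -0.90 for control replicate 1, -1.91 for control replicate 2, 1.59 for Ovol2 BT replicate 1 and 1.22 for Ovol2 BT replicate 2. The mean deviations of the 11 adipocyte markers, in the same order, were -0.59, -1.43, 1.03 and 0.997. Control replicate 2 was the lowest array for Aqp7 and for this mean, but not for every marker: Fabp4, the fatty acid carrier of fat cells, had 1349 in control replicate 1 and 1359 in control replicate 2, and the fat cell regulator Pparg had 876 and 924. What part the adipocyte markers have in the Aqp7 value was not tested.

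Brown adipocyte markers showed the same direction, with 4 of 7 tested genes called higher, 0 lower and a median of 2.01. Over all tested genes 0.615% were called higher. The list ran from 0.20 for Dio2, which was not called (adjusted p = 0.632), to 3.14 for Cox7a1. Cidea, a lipid droplet gene that is abundant in brown fat, was at 3.14 (SE 0.29, adjusted p = 0.00317), while Ucp1, whose protein uncouples mitochondria for heat, was at 2.31 (SE 0.25, adjusted p = 0.00481). Their summed intensity was 797 to 1069 in the controls and 3689 to 5462 in Ovol2 BT.

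**Figure D2:**
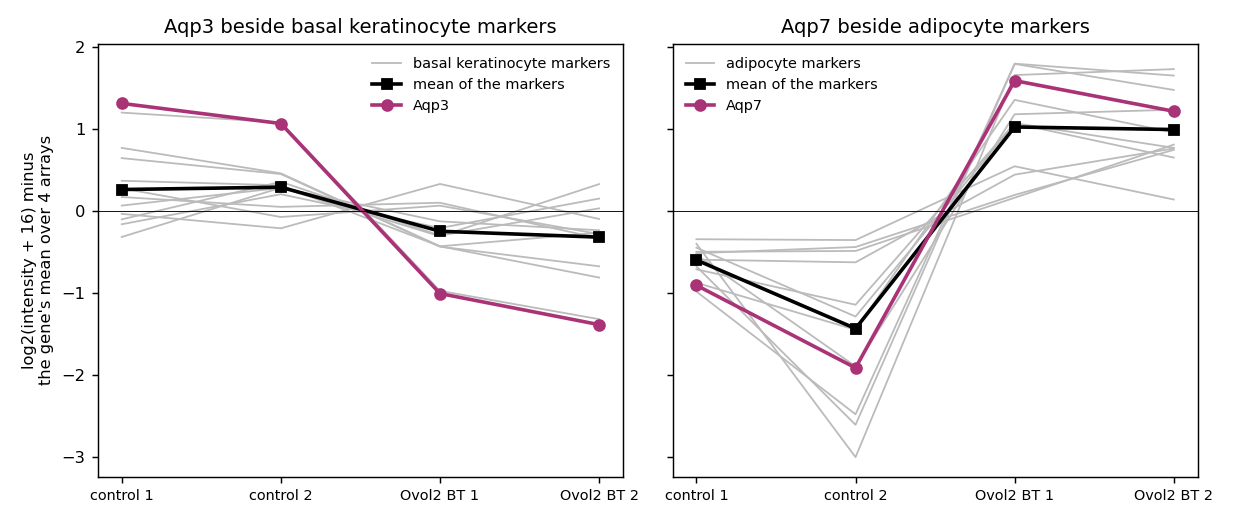
Log2(intensity + 16) of each gene minus its own mean over the 4 arrays (vertical axis), for Aqp3 beside the 11 basal keratinocyte markers (left) and Aqp7 beside the 11 adipocyte markers (right). Grey lines are single markers, black squares their mean and purple circles the aquaporin gene, and lines join the values of a gene without implying an order of arrays. The marker mean on the right goes from -0.59 and -1.43 in the controls to 1.03 and 0.997 in Ovol2 BT, and both aquaporin lines lie farther from 0 than their marker mean on all 4 arrays.

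The 5 genes most like Aqp7 over the arrays were Kcnk3, a potassium channel gene of brown fat (distance 0.11), Gpd1, which makes glycerol 3-phosphate (0.16), the carboxylesterase gene Ces1d (0.16), Pck1, an enzyme of glyceroneogenesis (0.20), and the adipocyte gene Adig (0.20). Gpd1, for example, had intensities of 1516 and 607 in the controls against 6467 and 6027 in Ovol2 BT. As for Aqp7, control replicate 2 was its lowest array. These genes were picked for their likeness over these same arrays, so a shared order is a description only. Log2 differences of the 5 genes were 2.81, 2.68, 2.98, 3.09 and 2.74, in the order named.

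Breakdown of triacylglycerol frees the glycerol that Aqp7 passes. Of 10 tested genes that carry out or restrain it, limma called 4 higher and 0 lower (median 1.05, against -0.04 for all tested genes), and all 10 had higher values. Pnpla2, the lipase that starts triacylglycerol breakdown, rose by 2.39 (SE 0.29, adjusted p = 0.00760), and Lipe, the hormone-sensitive lipase, by 1.73 (SE 0.29, adjusted p = 0.0299). Plin1, which guards the droplet surface, rose by 1.85 (SE 0.23, adjusted p = 0.00760) and Ces1d by 2.98 (SE 0.29, adjusted p = 0.00451). Over all tested genes limma called 0.615% higher. The list was drawn with earlier results of these data known, the rise of Ces1d among them, so its calls are no independent result. Plin1 and Lipe are also in the adipocyte list.

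Of 18 tested genes that make glycerol 3-phosphate or build acylglycerols from it, 5 were called higher and 0 lower by limma, and 15 had higher values (median 0.32). Again 0.615% of all tested genes were called higher, and this list too was drawn with earlier results of these data known. Pck1 rose by 3.09 (SE 0.33, adjusted p = 0.00481), a rise known when the list was drawn, and Gpd1 by 2.68 (SE 0.35, adjusted p = 0.0103). The later steps were represented by Agpat2, an acyltransferase (2.05, adjusted p = 0.00648), Lpin1, a phosphatidate phosphatase (2.02, adjusted p = 0.00732), and Dgat1, which adds the last acyl chain (1.86, adjusted p = 0.0128). The 13 other tested genes of this list were not called, and glycerol kinase, which would reuse glycerol, was not analysed here. All calls in both lists lie on arrays with summed adipocyte markers of 23404 to 23954 against 5502 to 8101, whose part in them was not tested.

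Lists closer to the role of Aqp3 held no calls. Of 13 tested genes of epidermal water holding (filaggrin-like proteins and their processing enzymes, hyaluronan genes and partners of Aqp3), limma called 0, with 2 higher and 4 lower at an unadjusted p under 0.05. Over all tested genes 10.4% passed that unadjusted limit. The genes of smallest p were Cd44, the hyaluronan receptor (-0.71, SE 0.20, adjusted p = 0.233), Padi3, a deiminase (0.65, SE 0.19, adjusted p = 0.242), Blmh, a protease that breaks filaggrin down to amino acids (-0.68, adjusted p = 0.265), and Trpv4, an osmosensitive calcium channel (-0.57, adjusted p = 0.390). The median of the list was -0.19.

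Among 18 tested genes of osmolyte transport and cell volume, limma called 0, and 1 was higher and 0 lower at an unadjusted p under 0.05. Their median was -0.03, close to that of all tested genes. Slc14a2, a urea transporter gene, was at 0.49 (SE 0.15, adjusted p = 0.270) and Slc5a3, which imports myo-inositol, at 0.44 (SE 0.21, adjusted p = 0.529). The sodium-potassium-chloride cotransporter gene Slc12a2 was at -0.38 (adjusted p = 0.596) and the taurine transporter gene Slc6a6 at -0.29 (adjusted p = 0.643). No difference of these genes was detectable with 2 arrays per group.

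**Figure D3:**
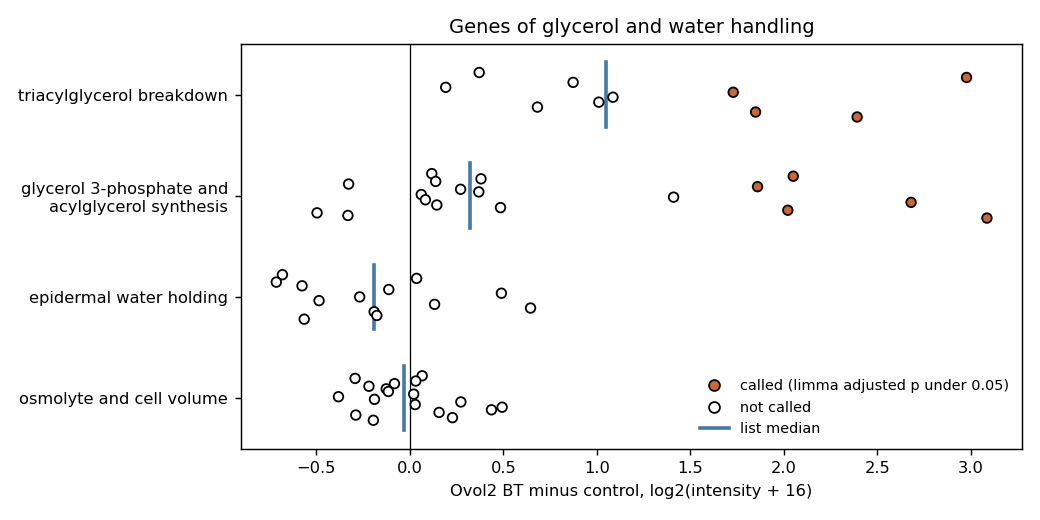
Log2 difference (Ovol2 BT minus control, horizontal axis) of each tested gene in 4 lists, with genes called by limma filled, genes not called open and the list median as a vertical bar. Calls appear only in the lists of triacylglycerol breakdown (4 of 10) and of glycerol 3-phosphate and acylglycerol synthesis (5 of 18), and 0 of 13 and 0 of 18 genes were called in the lists below them.

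Genes around Aqp3 and Aqp7 differed little. The 8 protein-coding genes on either side of the pair were taken from the reference order, and 15 of these 16 had a probe set of their own and were tested. Limma called 0 of the 15, and 1 passed an unadjusted p under 0.05. Their log2 differences had a median of -0.11 and ran from -0.56 for the kinesin gene Kif24 (SE 0.20, adjusted p = 0.381) to 0.39 for the glycosidase-like gene Myorg (SE 0.21, adjusted p = 0.565). Of the 15, 12 had lower and 3 higher values in Ovol2 BT, where 44.4% of all tested genes had higher values.

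Nfx1, the next gene on the Aqp7 side and a zinc finger gene, had intensities of 511 and 535 in the controls against 402 and 481 in Ovol2 BT (-0.24, SE 0.21, adjusted p = 0.707). Nol6, the next gene on the Aqp3 side and a nucleolar protein gene, stood at 975 and 895 against 1117 and 807 (0.02, SE 0.23, adjusted p = 0.978). Nol6 overlapped between the groups, and the Nfx1 arrays were separated by a small gap. The others with lower values were the chaperone gene Dnaja1 (-0.04), Nudt2 (-0.05), Dcaf12 (-0.09), B4galt1 (-0.11), Ube2r2 (-0.11), Aptx (-0.12), Bag1 (-0.17), Chmp5 (-0.18), Ubap2 (-0.21) and Smu1 (-0.45). Spink4, a protease inhibitor gene, had a higher value (0.18, adjusted p = 0.718).

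**Figure D4:**
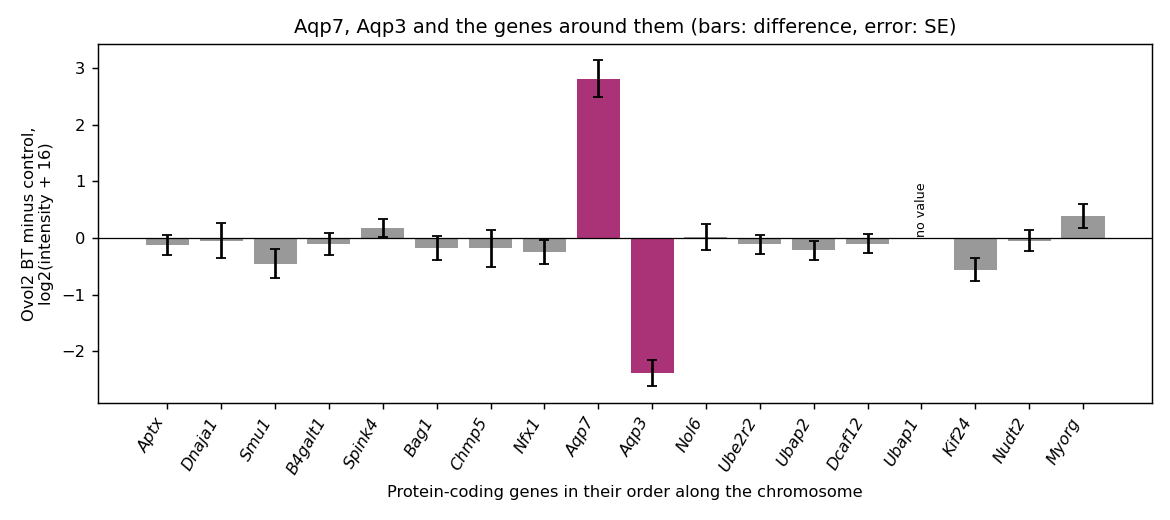
Log2 difference (Ovol2 BT minus control, vertical axis) with its SE from the limma fit for Aqp7, Aqp3 (purple) and the 8 protein-coding genes on either side (grey), in their order along the chromosome with equal spacing. Aqp7 at 2.81 and Aqp3 at -2.39 stand side by side between genes that range from -0.56 to 0.39, and Ubap1 has no probe set of its own.

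Aqp9, the third member that passes glycerol, did not share either pattern. Its intensities were 184 and 133 in the controls against 152 and 150 in Ovol2 BT. The Ovol2 BT arrays lay between the controls, and the log2 difference was -0.05 (SE 0.20). Without control replicate 1 the value was 0.16 and without control replicate 2 it was -0.26, so its sign depends on 1 control array. Aqp9 is best known from liver. Of 6 tested liver markers (median -1.31), limma called 1 lower, the albumin gene Alb (-2.63, SE 0.45, adjusted p = 0.0328), and 0 higher. The other 5 did not pass the test. At an unadjusted p under 0.05, 5 of the 6 were lower and 0 higher, a limit that 10.4% of all tested genes passed. The arrays were separated with Ovol2 BT lower for all 6, as for 21.9% of all tested genes. The fetal albumin gene Afp was at -2.40 (SE 0.63, adjusted p = 0.182), with intensities of 2146 and 482 in the controls against 298 and 108 in Ovol2 BT. The summed intensity of the liver markers was 2353 to 5697 in the controls and 729 to 1240 in Ovol2 BT. What part these markers have in the Aqp9 value was not tested. With 1 array left out 1 to 5 liver markers were called (5 without control replicate 2, and 3 without either control replicate 1 or Ovol2 BT replicate 1), and 0 without a variance trend.

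Myeloid cells are another known site of Aqp9. Of 8 tested myeloid markers limma called 0, with 1 higher and 0 lower at an unadjusted p under 0.05, and the median was 0.15. Cd68, a lysosomal protein gene of macrophages, was at 0.64 (SE 0.25, adjusted p = 0.423), and the integrin gene Itgam at -0.36 (adjusted p = 0.591).

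Aqp1, the water channel of red blood cells and capillary endothelium, had intensities of 1787 and 1326 in the controls against 2259 and 1841 in Ovol2 BT. The higher control lay just under the lower Ovol2 BT array. Its log2 difference was 0.40 (SE 0.22), and it was 0.62 without control replicate 1 and 0.19 without control replicate 2. Of 11 tested endothelial markers, 10 had higher values (median 0.22), while limma called 0 and 0 passed an unadjusted p under 0.05. Cldn5, the tight junction claudin of vessels, was at 0.50 (SE 0.23, adjusted p = 0.512), and the receptor kinase gene Tie1 at 0.40 (SE 0.21, adjusted p = 0.562). The summed intensity of these markers was 8668 to 9520 in the controls and 10500 to 11205 in Ovol2 BT, and their part in the Aqp1 value was not tested. Only 3 erythroid markers could be tested, with 0 called and 0 at an unadjusted p under 0.05. Of these, 2 had higher and 1 had lower values in Ovol2 BT. Slc4a1, the anion exchanger of red cells, was at 0.46 (adjusted p = 0.563), and Alas2, of heme synthesis, at 0.20 (adjusted p = 0.745). The globin gene Hbb-y was at -0.37 (SE 0.53, adjusted p = 0.822). Its intensities were 318 and 194 in the controls against 392 in Ovol2 BT replicate 1 and 87.4 in Ovol2 BT replicate 2.

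Aqp4, a water channel of fast muscle fibres and of glia, had intensities of 101 and 90.6 in the controls and 113 on both Ovol2 BT arrays. All lay below the array medians of 123 to 132, so its expression in this skin is not shown. The groups were separated by a small gap, with a log2 difference of 0.21 (SE 0.16). Of 10 tested skeletal muscle markers, 9 had higher values (median 0.24), and limma called 0, with 3 higher and 0 lower at an unadjusted p under 0.05. The myoglobin gene Mb was at 0.45 (SE 0.17, adjusted p = 0.409), and Des, of the muscle intermediate filament desmin, at 0.41 (SE 0.16, adjusted p = 0.433). Summed muscle intensity was 22645 to 22819 in the controls and 25694 to 28215 in Ovol2 BT, and its part in the Aqp4 value was not tested. Among 5 tested Schwann cell markers limma called 0, with 0 at an unadjusted p under 0.05. Their median was -0.24, with S100b at 0.45 (adjusted p = 0.506) and the receptor gene Erbb3 at -0.30 (adjusted p = 0.630).

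Aqp5, the water channel of gland and airway epithelia, had intensities of 206 and 197 in the controls against 233 and 241 in Ovol2 BT. These were the most even replicates among the members on the log2 scale, with a pooled SD of 0.04, and the difference was 0.22 (SE 0.19, which limma draws toward the spread of other genes of similar level). Of 8 tested markers of gland and simple epithelium, limma called 1 higher, Krt8, a keratin of simple epithelia (2.19, SE 0.24, adjusted p = 0.00499), and 0 lower. The simple keratin gene Krt7 was at -1.73 (SE 0.39, adjusted p = 0.103), and was called with 1 array left out in 3 of the 4 cases. The median of these markers was -0.24, and their part in the Aqp5 value was not tested.

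Aqp8, a water channel of gut and gland cells, had intensities of 83.7 and 85.0 in the controls against 78.8 and 71.0 in Ovol2 BT. All of these, too, lay below the array medians. Both Ovol2 BT arrays were lower by a small amount, with a log2 difference of -0.14 (SE 0.14). Aqp11, a channel of the endoplasmic reticulum needed in the kidney, had intensities of 118 and 92.7 in the controls against 167 and 162 in Ovol2 BT. Its groups were separated, and its log2 difference of 0.58 (SE 0.18, 1.5-fold higher) was the largest among the 6 members other than Aqp3 and Aqp7. With 1 array left out it stayed between 0.43 and 0.73.

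**Figure D5:**
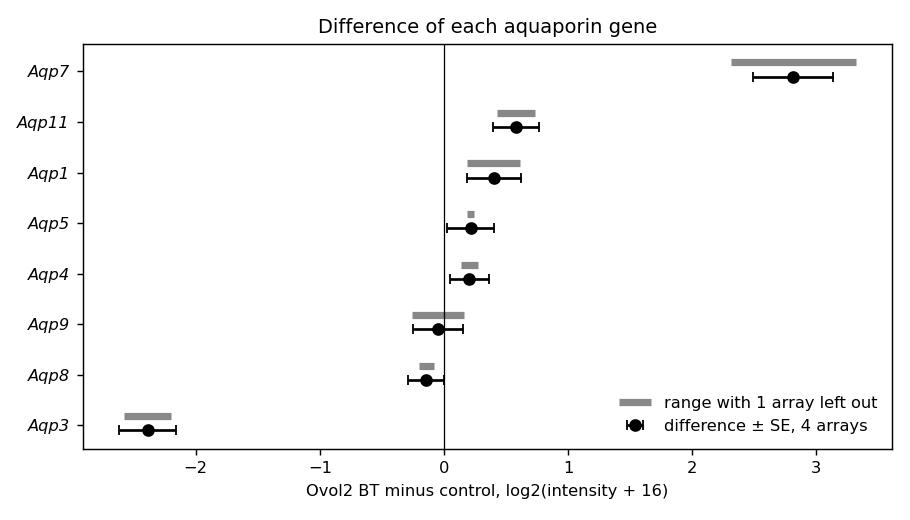
Log2 difference (Ovol2 BT minus control, horizontal axis) of each aquaporin gene, with black points and bars for the value and its SE over 4 arrays and grey bands for the range with 1 array left out. Aqp3 at -2.39 and Aqp7 at 2.81 lie apart from the other 6, and the grey band of Aqp9 crosses 0.

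Within groups, the replicates were not even across the family. Control replicate 1 was above control replicate 2 for 7 of the 8 members, where 57.2% of all tested genes had that order, and Aqp8 was the exception. Ovol2 BT replicate 1 was above Ovol2 BT replicate 2 for 6 of the 8, all but Aqp4 and Aqp5, where 52.0% of all tested genes had that order.

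The family has 4 further genes on the array, which lay near the other small differences. Mip, the lens channel, stood at 67.2 and 84.3 in the controls against 99.7 and 83.7 in Ovol2 BT (log2 difference 0.23, SE 0.16), with overlapping groups. Aqp2, the vasopressin-controlled channel of the kidney, was at 0.03 (SE 0.20), and Aqp12, of the pancreas, at 0.30 (SE 0.21), with 202 in Ovol2 BT replicate 2 against 129 to 137 on the other arrays. Aqp6 was among the dim genes left out, with 33.1 to 40.8 on the 4 arrays. Aqp5 lies between Aqp2 and Aqp6 on chromosome 15 in the reference order, and none of these adjacent genes differed by as much as 2-fold.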

How the data were processed

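RNA of E17.5 skin was measured on 4 arrays (2 control, 2 Ovol2 BT), and each array's group and replicate number come from its title. Affymetrix Expression Console 1.1.1 and PLIER 2.0 are the tools that the submitters' processing notes name. With them the authors made the deposited intensities, which are linear and have 1 value for each probe set. How background and scaling between arrays were handled is not given in the sources used here, and the values were kept as deposited. Probe sets were named from the platform annotation, and of 35557 only the 21789 naming 1 gene were used, the one with the highest mean where a gene had several. Values were taken as log2(intensity + 16), which understates differences of dim genes. The dimmest 25% of genes by mean were left out, leaving 14953. The groups were compared gene by gene in limma 3.58.1 (R 4.3.3; lmFit and eBayes with trend, two-sided), and p-values were adjusted over all tested genes by Benjamini-Hochberg, with calls made under 0.05. Python 3.11.15 with pandas 2.3.3 served for tables and matplotlib 3.10.9 for plots.

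The fit was tested on simulated data for this comparison, with 200 of 14953 genes changed in each of 10 runs. It recovered 0.8% of 1.5-fold changes, 26% of 2-fold, 97.6% of 4-fold and 99.8% of 8-fold changes, with 5.88% false calls. Simulated errors were normal and independent between arrays, with variances drawn from the fitted model itself. The rates describe such data, while on the real arrays the deviations of same-numbered arrays had a correlation of 0.41 over genes.

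The members and gene lists were chosen with earlier results of these data known, so differences of the aquaporin genes are descriptions with no test. Named are all aquaporin genes, Ovol2, the tested neighbours of Aqp3 and Aqp7, and the 5 genes most like Aqp3 and most like Aqp7. Predicted models and clones were left out of the search for these most alike genes. Of each pathway list, up to 6 called genes by size are named, filled up to 4 by the smallest p, and of each marker list the 2 genes of smallest p. Marker genes named for the lowest or highest difference of a list, with Krt14, Fabp4 and Pparg, were picked after their values were seen. Alternatives were pseudocounts of 1 and 64, no filter or the dimmest 50% left out, quantile normalization, centring on the median, eBayes without a trend or in its robust form, averaged probe sets, the replicate number as a block, 1 array left out at a time, and a threshold of 0.10. Upstream sequences came from RefSeq (GRCm38.p6). No coordinates come from the deposited values, whose build is not given in the sources used here.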

Additional observations from a re-analysis of the deposited data

How the results depend on the processing

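The number of called genes moved most with the setting. Against 144 over all genes, median centring gave 218, and leaving out 1 array gave 206 to 366, the highest when control replicate 1 was dropped and 249 when Ovol2 BT replicate 2 was. The replicate number as a block gave 671. The labels state no pairing behind that number. The deviations of arrays sharing a number had a correlation of 0.41 over genes, and from the labels it cannot be told whether such arrays belong together. Under the block 8 genes of triacylglycerol breakdown (against 4) and 3 of epidermal water holding (against 0) were called. The other list of glycerol genes, the osmolyte list and the neighbours of Aqp3 and Aqp7 stayed within 1.5 times their counts under all alternatives run. Aqp3 was at -2.11 with a pseudocount of 64, a shift larger than its replicate SD of 0.23, since that pseudocount compresses low values. Aqp7 stayed between 2.59 and 2.90 under the other scalings, pseudocounts and the block. Of the 8 members Aqp9 changed sign, without control replicate 1, and the others kept theirs under the alternatives run. The values carry no counts or detection calls. In the simulation differences of 1.5-fold were rarely called.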
